A study of Homo sapiens with 8 samples.

Results

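Strengthened regions were stretches of chromatin that carried acetylated lysine 27 of histone H3 (H3K27ac) in every library and ranked higher in H3K27ac after NRF2 siRNA than after control siRNA. Peaks of 6 deposited lists were merged where they overlapped by at least 1 base, which gave 49186 regions. The 16845 regions that had a peak in every library are named shared regions here. In each library a region took the highest fold enrichment of its peaks, and this value was turned into a percentile among the regions that the library had called. A shared region was counted as strengthened when its percentile was higher in the NRF2 siRNA library in all 3 same-numbered pairs and the mean rise was at least 20 percentile points. This rule chose 975 regions, or 5.79% of the shared regions, while its mirror image chose 1243 weakened regions, or 7.38%. The balance of these counts was not stable: it was 1524 strengthened to 1375 weakened with percentiles taken among shared regions only, 1127 to 1105 with lists of equal length, and 1068 to 785 without replicate 1. The rises given below were used to choose the regions and are a description of them, not a test.

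The libraries came from A549, a human lung adenocarcinoma cell line, harvested 48 h after transfection of siRNA. There were 3 control siRNA libraries and 3 NRF2 siRNA libraries, with siRNA 28 in NRF2 siRNA replicate 1 and siRNA 30 in replicates 2 and 3. The study describes the replicates as biological, the level of NRF2 itself was not measured by these lists, and the 2 input DNA samples were not analysed here. The lists held 23885 to 41571 peaks and give no read counts, so a rise means a higher rank within a list and not a larger amount of acetylation per cell. By the read totals that the study states, both replicate 1 libraries were sequenced far less deeply than the others.

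H3K27ac is laid down by the acetyltransferases p300 and CBP at active promoters and enhancers, the latter being stretches of DNA that raise transcription of genes from a distance. NRF2, encoded by NFE2L2, is a transcription factor of the cap'n'collar family that binds the antioxidant response element (ARE) together with a small MAF protein and drives genes of antioxidant defence and detoxification; it is kept low by KEAP1 in most cells and is persistently active in A549 cells. AP-1, a dimer of FOS and JUN proteins, binds a related but shorter motif and is a frequent occupant of enhancers in epithelial cells.

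The following stretches are shown because they lie in the strengthened regions with the largest rises and hold, in capitals, the AP-1 motif that was more common in strengthened regions than in all shared regions in the counts given further on. Each was read from the plus strand of GRCh37, the build of the peak lists (hg19), around the match nearest to the centre of the longest stretch that all 6 libraries had called. The motif searched was TGANTCA, which reads the same on both strands. The place given is that of the stretch itself, and the whole region can also reach an exon or a start. Intergenic means outside protein-coding genes, so such a stretch can lie in a noncoding gene.
AMHR2, intron (chr12:53822123-53822243): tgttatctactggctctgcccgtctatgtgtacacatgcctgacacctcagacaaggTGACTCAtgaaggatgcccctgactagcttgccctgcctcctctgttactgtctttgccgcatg
CMSS1 and FILIP1L, intron (chr3:99620181-99620301): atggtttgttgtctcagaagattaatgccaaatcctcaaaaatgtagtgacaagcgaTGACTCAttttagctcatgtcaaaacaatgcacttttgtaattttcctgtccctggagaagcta
ZNF385B, intron (chr2:180325365-180325485): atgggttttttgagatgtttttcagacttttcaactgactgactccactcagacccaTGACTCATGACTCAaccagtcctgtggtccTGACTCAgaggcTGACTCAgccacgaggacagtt
near PAPSS2, intergenic (chr10:89395715-89395835): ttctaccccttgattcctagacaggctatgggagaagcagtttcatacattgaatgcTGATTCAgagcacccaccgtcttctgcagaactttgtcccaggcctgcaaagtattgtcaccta
COL13A1, intron (chr10:71624300-71624420): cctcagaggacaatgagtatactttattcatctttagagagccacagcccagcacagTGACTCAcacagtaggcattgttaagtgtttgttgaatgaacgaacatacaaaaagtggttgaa
NOS1, intron (chr12:117780649-117780769): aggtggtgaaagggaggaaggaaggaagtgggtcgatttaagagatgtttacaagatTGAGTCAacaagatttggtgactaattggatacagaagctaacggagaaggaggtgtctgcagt
MARCHF4, beside its start (chr2:217237986-217238106): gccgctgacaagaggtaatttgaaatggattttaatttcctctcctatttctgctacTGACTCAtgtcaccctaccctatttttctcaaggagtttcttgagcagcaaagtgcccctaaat
RAD51B, intron (chr14:68879592-68879712): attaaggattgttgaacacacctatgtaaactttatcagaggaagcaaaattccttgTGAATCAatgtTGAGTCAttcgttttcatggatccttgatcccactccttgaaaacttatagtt
The ZNF385B stretch held all 4 matches of its 1000-base window, a pair set end to end and then 2 single copies. Among the 10 regions with the largest rises, 8 had at least 1 match in the 1000-base window, and so had all 5 of the regions with the largest rises at coding starts; the region near RASSF9 and the region near RGS2 had none.

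The strengthened regions moved from the lower part of the ranking to the level of a typical shared region. Their median percentile was 23.9, 43.97 and 46.2 in control siRNA replicates 1, 2 and 3, and 61.6, 72.6 and 72.7 in NRF2 siRNA replicates 1, 2 and 3. All shared regions had medians of 64.2, 72.0 and 78.0 in the control libraries and 58.0, 72.9 and 76.7 in the NRF2 siRNA libraries. In control cells the strengthened regions thus ranked below the shared median in every library, and after NRF2 siRNA they lay above it in replicate 1 and below it in replicates 2 and 3. The median fold enrichment over background, as the authors' peak caller gave it, was 3.28, 3.74 and 3.89 in the control libraries and 4.35, 5.92 and 5.90 in the NRF2 siRNA libraries. In 955 of the 975 regions the fold was higher in all 3 pairs, which largely follows from the rule, as it ranked this same fold. The median ratio of NRF2 siRNA to control fold was 1.31, 1.57 and 1.48 in pairs 1, 2 and 3. Over all shared regions it was 0.879, 1.07 and 0.893. The part of a region's merged length that a library called was also longer, at a median of 41.5%, 60.1% and 65.1% in the control libraries against 53.6%, 85.2% and 93.5% in the NRF2 siRNA libraries.

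**Figure D1:**
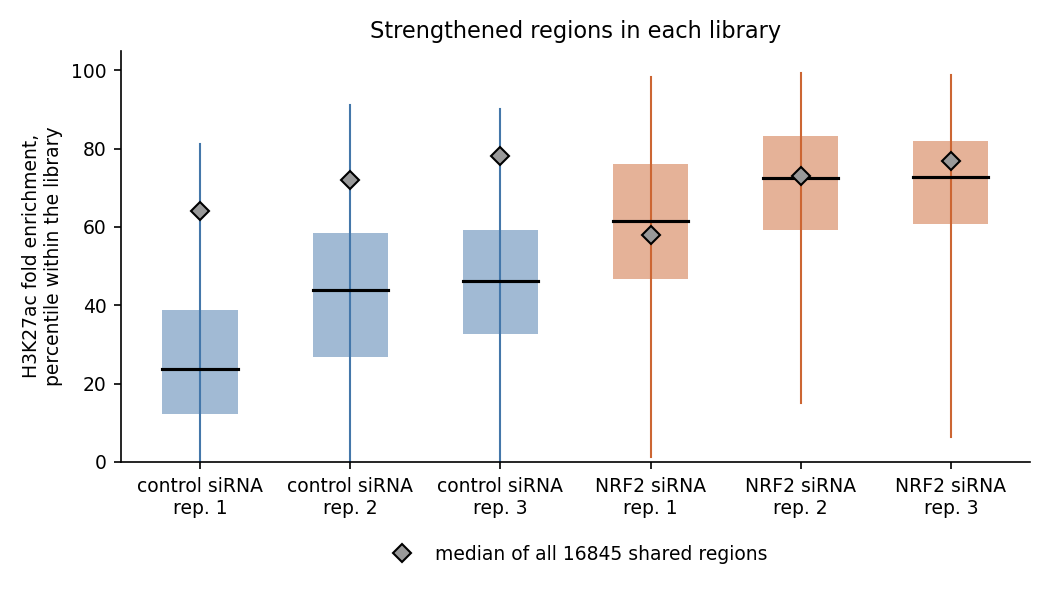
Percentile of H3K27ac fold enrichment within each library for the 975 strengthened regions. Bars span the quartiles, black lines mark the medians, thin lines reach from the lowest to the highest region, and grey diamonds give the median of all shared regions. The medians of the strengthened regions were 23.9 to 46.2 in the control libraries and 61.6 to 72.7 in the NRF2 siRNA libraries.

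The mean rise had a median of 26.6 points and reached 71.9 points. It was under 30 points in 629 regions and at least 50 points in 26. The pair with siRNA 28 contributed most, with a median change of 33.2 points in pair 1 against 26.3 in pair 2 and 25.02 in pair 3, and was the largest of the 3 changes in 523 regions (53.6%). Over all shared regions the corresponding medians were -3.05, 0.41 and -0.86. Peak lists of replicate 1 were also the shortest of each group, and depth, list length and siRNA cannot be told apart in that pair. Without it, 711 of the 975 regions met the rule on the other pairs. In 652 strengthened regions (66.9%) every NRF2 siRNA library lay above every control library, compared with 8.45% of all shared regions, and a rise in all 3 pairs, which the rule demanded, was seen in 21.3% of all shared regions.

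A region near the top of the control ranking could not rise by 20 points and so could not be chosen. The control mean of the strengthened regions ran from 2.70 to 73.5 with a median of 38.1, and their NRF2 siRNA mean from 27.5 to 97.1 with a median of 68.4. Of the shared regions, 5687 had a control mean above 80 and could not meet the rule. The share chosen was 40.1% of shared regions with a control mean between 10 and 20, 13.1% between 40 and 50, and 0.42% between 70 and 80. The control values are part of the rise, so a low control mean by itself favours being chosen. By the percentile averaged over the 6 libraries, the share was 12.3% between 20 and 30, 10% between 50 and 60 and 3.81% between 70 and 80. At the threshold, the last regions inside were an intergenic region 57979 bases from the start of WDR44 on chromosome X (20.05 points), a region in OLFML3 (20.02 points) and a region at an exon of POLA2 (20.02 points). The next regions outside, at the coding start of NAT9 (19.998 points), in an intron of CCNY (19.99 points) and 213108 bases from IRS1 (19.99 points), also rose in every pair.

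The largest rise lay within AMHR2, the gene for the receptor of anti-Müllerian hormone. This region (chr12:53820123-53823874) overlapped exons of the gene, and its percentile was 25.3, 7.33 and 18.8 in the control libraries and 92.7, 90.8 and 83.5 in the NRF2 siRNA libraries, a mean rise of 71.9 ± 10.1 points (SD over 3 pairs). The groups were far apart, and its fold enrichment went from 3.32, 2.67 and 2.78 to 7.32, 9.49 and 7.63. An intron shared by CMSS1 and FILIP1L (chr3:99619328-99621804), the latter encoding a filamin A-interacting protein, had the smallest spread between pairs among the 10 largest rises. It stood at 4.34, 8.59 and 1.65 in control cells and at 66.5, 69.0 and 67.9 after NRF2 siRNA, a mean rise of 62.9 ± 3.003 points. These were the regions past an adjusted p of 0.05 in limma with NRF2 siRNA higher, calls that were lost when any control library or NRF2 siRNA replicate 2 or 3 was left out.

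The other regions of largest rise lay in introns or outside protein-coding genes. Those near PAPSS2 and RGS2 overlapped noncoding RNA genes. The region near RASSF9, 208506 bases from the nearest coding start (chr12:86019327-86021681), stood at 1.73, 23.2 and 0.494 in the control libraries and at 80.9, 71.3 and 71.0 in the NRF2 siRNA libraries. The control value of replicate 2 was the highest of its group but still far below the NRF2 siRNA values. The intronic region of ZNF385B, a zinc finger gene (chr2:180324225-180326338), rose from 5.55, 31.3 and 29.6 to 70.6, 91.7 and 85.4, a mean of 60.5 ± 4.65 points. A region 22495 bases from PAPSS2, whose product makes the sulphate donor of the cell, rose by 59.1 ± 14.5 points on average. COL13A1 and COL17A1, which encode collagens that stand in the cell membrane, were in or near regions of this group, with mean rises of 58.2 ± 17.9 points in an intron of COL13A1 and 55.6 ± 21.5 points at 6501 bases from COL17A1. In both regions, the control libraries spread widely, from 2.84 to 45.97 and from 2.99 to 40.9, without reaching the NRF2 siRNA libraries. The remaining 3 overlapped CCDC171 (57.9 ± 9.50 points), lay at 15398 bases from RGS2, a regulator of G protein signalling (55.02 ± 17.1 points), or lay in NOS1, the neuronal nitric oxide synthase (54.8 ± 10.4 points). Near the centre of the CCDC171 region, the stretch around its AP-1 match lay between genes. Ranked by the smallest of the 3 pair changes, AMHR2, CMSS1/FILIP1L and ZNF385B led, followed by an intron of EPM2A, the gene of the glycogen phosphatase laforin, whose rise was 48.1, 55.5 and 49.1 points in pairs 1, 2 and 3, and by the region near RASSF9.

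**Figure D2:**
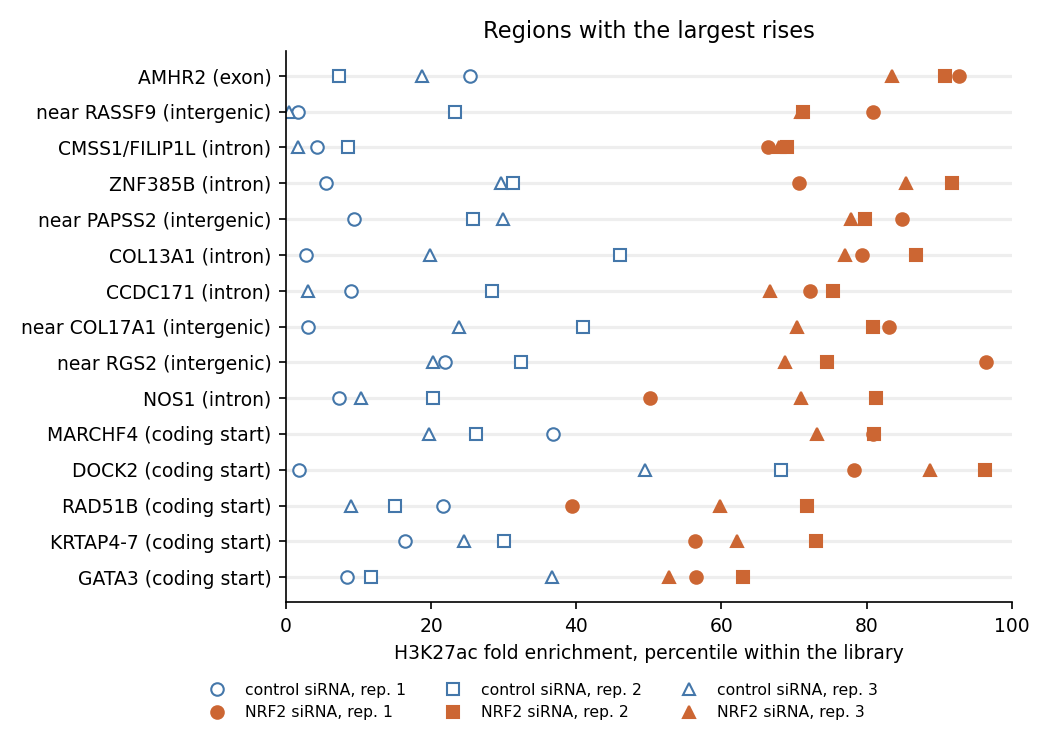
Percentile of H3K27ac fold enrichment (horizontal axis) in each of 6 libraries for the 10 strengthened regions with the largest mean rise and the 5 with the largest rise at a coding start. Open symbols are control siRNA, filled symbols NRF2 siRNA, and the shape gives the replicate; in all 15 the filled symbols lie to the right of the open ones.

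Regions at coding starts rose less. The largest was at the start of MARCHF4, a membrane-bound ubiquitin ligase, with 36.8, 26.2 and 19.7 in the control libraries and 80.8, 81.1 and 73.2 in the NRF2 siRNA libraries, a mean rise of 50.8 ± 5.91 points. The region at a start of DOCK2, an activator of the GTPase RAC, stood at 1.79, 68.2 and 49.5 in control cells and at 78.2, 96.4 and 88.7 after NRF2 siRNA. Its mean rise of 47.9 ± 25.3 points therefore leaned on pair 1, where the control value was close to the bottom of the list. At GATA3, a transcription factor of epithelial and lymphoid cells, control values of 8.38, 11.7 and 36.7 were followed by 56.5, 62.9 and 52.7. Starts of the recombination gene RAD51B and the hair keratin-associated gene KRTAP4-7 rose by 41.8 ± 21.0 and 40.2 ± 2.62 points.

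Most strengthened regions lay away from promoters. Of the 975, 97 (9.95%, 95% Wilson interval 8.22 to 11.99) held a transcription start of a protein-coding gene, compared with 41.8% of all shared regions and 36.0% of the weakened regions. A further 4.72% held only a start of a noncoding gene, against 7.90% of shared regions. Introns held 33.4% and intergenic DNA 39.1% of the strengthened regions, compared with 18.0% and 23.9% of all shared regions, and exons without a start held 12.8% against 8.44%. The low share was also seen among regions of like level: of the shared regions with a percentile averaged over the 6 libraries between 50 and 60, 9.30% of the strengthened, 41.4% of the weakened and 44.5% of all shared regions held a coding start. Intervals cover counting error only, and neighbouring regions are not independent.

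**Figure D3:**
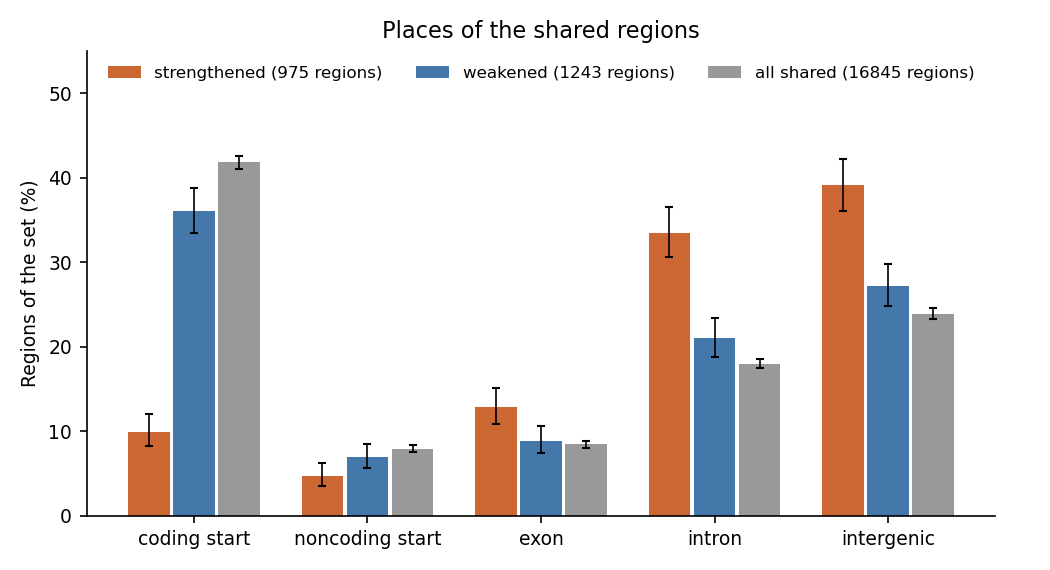
Share of the 975 strengthened, 1243 weakened and 16845 shared regions by place in the gene annotation, with 95% Wilson intervals. Coding starts made up 9.95% of strengthened regions and 41.8% of shared regions, and the largest class of strengthened regions was intergenic (39.1%).

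The median distance to the nearest coding start was 34284 bases for strengthened regions and 6861 bases for all shared regions, and 24.8% against 14.1% lay more than 100 kb away. Among regions without any start, the distances were closer, at 40542 and 34715 bases. Strengthened regions were seldom broad: 21 of 975 spanned 10000 bases or more, compared with 11.4% of all shared regions and 4.75% of weakened regions, while the median width was 3234 bases against 3561. The 1000 bases at the centre had a median GC content of 41.9%, compared with 48.6% for all shared regions, a gap that narrowed to 41.4% against 42.6% among regions without a start. Chromosomes 1 to 22 and X all held strengthened regions, from 2.95% of the shared regions on chromosome 19 to 7.49% on chromosome 2.

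Strengthened regions held the AP-1 motif more often than all shared regions, and the ARE less often. In the central 1000 bases of regions without a start, 76.8% of 832 strengthened regions, 59.8% of all shared regions and 56.1% of weakened regions matched TGANTCA. For the ARE, searched as its published consensus on both strands, the shares were 33.1%, 38.5% and 52.8% in the same order. Because AP-1 matches can lie inside an ARE, matches that overlap an ARE were also left out, which gave 75.5%, 56.0% and 43.2%. Regions with at least 2 AP-1 matches were likewise more common among strengthened regions, with 23.3% at 2 matches and 9.38% at 3 or more, compared with 16.8% and 5.80% of shared regions. The forms TGACTCA and TGAGTCA were found in 59.5% against 46.2% of regions without a start, and the forms TGAATCA and TGATTCA in 33.7% against 24.8%.

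At starts, coding or noncoding, the AP-1 motif was present in 56.6% of 143 strengthened regions and 25.8% of all shared regions. The higher share was seen in every band of level and of base composition. With the average percentile between 40 and 50, for example, 76.1% of strengthened regions without a start held the motif. The share was 54.3% among all other shared regions without a start, weakened ones included. With a GC content between 42 and 46% the values were 81.9% and 60.8%. Across regions without a start, the share with AP-1 was 48.9% where the mean change was between -20 and -10 points, 60.5% between 0 and 5 points and 78.5% at 30 points or more, but it was 64.9% among those that fell by more than 30 points, which also had the ARE most often (61.9%). Matches clustered at the centre of strengthened, weakened and all shared regions without a start alike. Strengthened regions had 1.62 per kilobase in the 200 bases left of the centre, compared with 0.331 per kilobase at 2900 bases left of it. The values were 1.18 and 0.339 in all shared regions and 1.25 and 0.254 in weakened regions.

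Motifs of other factor families had similar shares in both sets of regions without a start. The TEAD motif GGAATG, bound by partners of YAP, was found in 54.0% of strengthened and 51.7% of shared regions. The C/EBP motif TTGCNNAA stood at 48.0% and 47.6%, the FOX motif TGTTTAC at 19.7% and 20.1%, and the RUNX motif TGTGGTT at 17.9% and 18.7%. The GATA motif AGATAA (56.7% and 51.3%) and the SOX motif ACAATGG (15.3% and 13.0%) were somewhat more common, while the promoter-type motifs GGGCGG of SP and KLF proteins (11.9% and 17.6%) and CCGGAAG of ETS proteins (2.64% and 4.38%) were less common. All were read on both strands. A match is a string of letters in the reference genome and does not show that a factor was bound.

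**Figure D4:**
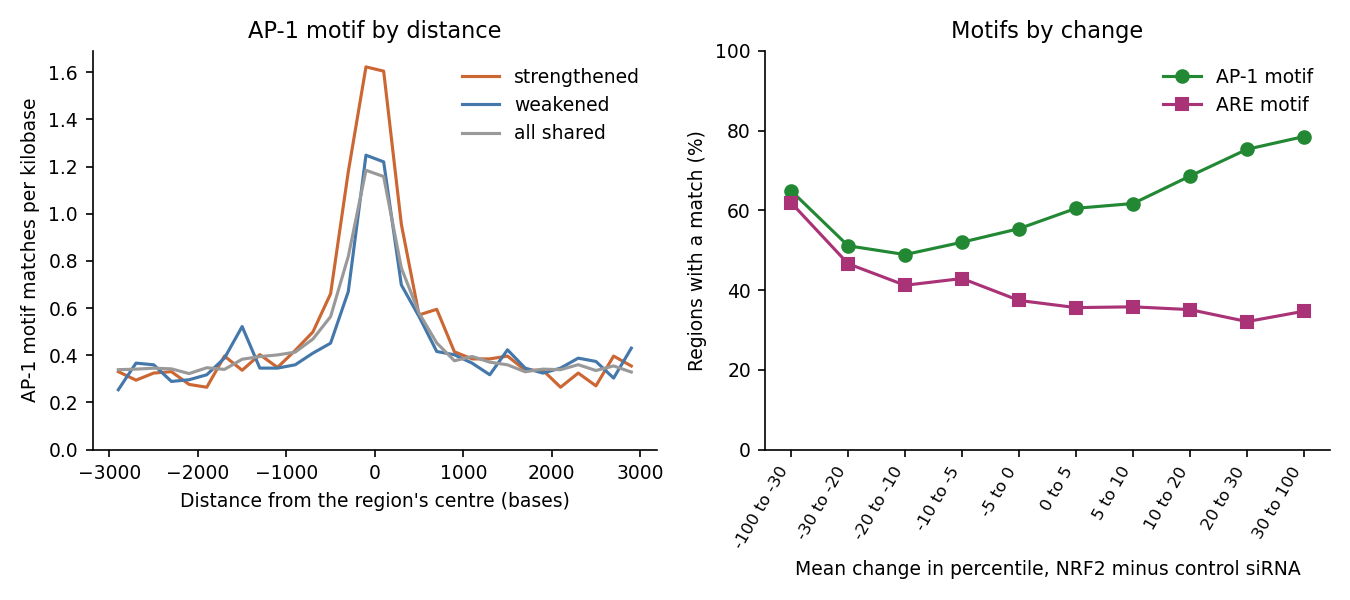
Left, AP-1 motif matches per kilobase (vertical axis) by distance in bases from the centre of the region, for strengthened, weakened and all shared regions without a transcription start. Right, share of shared regions without a start that held the AP-1 or the ARE motif in the central 1000 bases, by mean change in percentile; AP-1 reached 78.5% in the bin of 30 points or more, and ARE was highest, at 61.9%, in the bin of falls beyond 30 points.

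The surroundings of strengthened regions were described by the regions that were not called in all 6 libraries. Of the calls of each library outside the shared regions, 5.18%, 5.84% and 5.46% lay within 50 kb of a strengthened region in the control libraries, and 10.2%, 7.14% and 6.70% in the NRF2 siRNA libraries. The groups did not overlap, and NRF2 siRNA replicate 1, which had the fewest such calls (3674), stood above the rest. The means were 5.50 ± 0.332% and 8.01 ± 1.89% (SD, n = 3), a difference of 2.51 percentage points (exact permutation test, two-sided, p = 0.1, the smallest that 3 against 3 libraries can give). Without NRF2 siRNA replicate 1 the difference was 1.42 points. Within 50 kb of weakened regions the order was the opposite, with 9.74 ± 1.04% in the control libraries and 6.60 ± 0.779% in the NRF2 siRNA libraries. The same libraries had chosen the regions, so these values describe their surroundings and are not a separate test.

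Other shared regions close by moved little. The 1087 shared regions within 50 kb that were not themselves strengthened had a median change of 0.46 points, compared with -1.81 points for all 15870 shared regions that were not strengthened. Of these neighbours 26.5% were higher in all 3 pairs, against 16.5% of all the others, and 5.43% were weakened, against 7.83%. Within 20 kb the share higher in all pairs was 31.2%, and within 100 kb it was 23.7%.

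**Figure D5:**
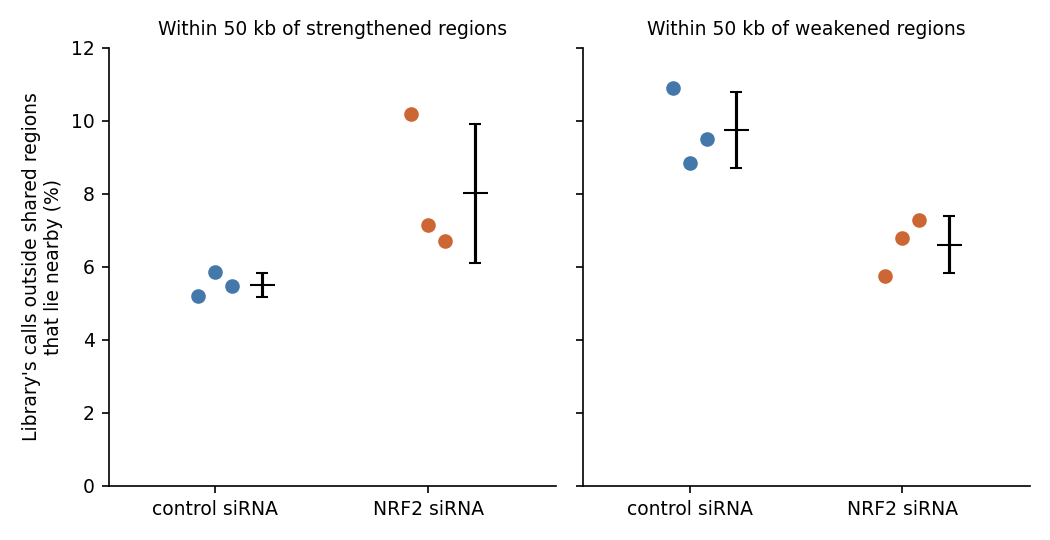
Share of each library's calls outside the shared regions that lay within 50 kb of a strengthened region (left) or a weakened region (right). Points are libraries in order of replicate, and bars give the mean ± SD of 3 libraries; beside strengthened regions the control libraries lie between 5.18% and 5.84% and the NRF2 siRNA libraries between 6.70% and 10.2%.

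Most strengthened regions stood alone. When regions separated by at most 100 kb were joined, 805 had no other strengthened region that close, 66 groups held 2, 10 held 3 and 2 held 4. A group of 4 lay in LMO7, the gene of a LIM domain protein of the actin cytoskeleton and cell junctions (chr13:76257654-76301128), and took up 4 of the 5 shared regions in its span. The mean rises in its 4 regions were 25.001, 21.5, 46.4 and 20.6 points, so that a single intronic region moved well beyond the others; without replicate 1 it alone passed 20 points. The other group of 4 ran over 207 kb from PDHX, a subunit of the pyruvate dehydrogenase complex, to CD44, the hyaluronan receptor (chr11:34996581-35203933), with rises of 23.4, 21.3, 28.1 and 22.9 points, which were 15.1, 12.8, 22.3 and 8.45 points without replicate 1, so that only the third passed 20 points. The region in CD44 held a coding start inside the gene, downstream of the first one. Its percentile was 42.7, 83.1 and 78.6 in the control libraries and 94.4, 91.8 and 86.8 in the NRF2 siRNA libraries. Pair 1 accounted for most of its mean rise.

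The group with the largest mean rise among those of 3 or more, 41.5 points, lay between genes beside FST, which encodes follistatin, a secreted inhibitor of activin (chr5:52655201-52722885). All 3 shared regions in its span were strengthened, with mean rises of 32.1, 52.0 and 40.4 points. The region nearest to FST, at 53571 bases, stood at 42.8, 53.7 and 54.3 in control cells and at 90.4, 91.1 and 90.7 after NRF2 siRNA. Groups of 3 were also found in or beside RGS2, HMGA2, SGK1, PSD3, ATXN7L3B, ME3, AOX1, ST8SIA4 and at NKX2-6 and STC1, named here after their values were seen.

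Gene lists were compared by how many of the shared regions in or near their genes were strengthened. Of 90 shared regions in or within 20 kb of 39 NRF2-related antioxidant and detoxification genes, 3 (3.33%, against 5.79% of all shared regions) were strengthened, 19 were weakened, and the median change was -5.35 points. The largest rise lay at exons of GSR, the gene of glutathione reductase, on chromosome 8, with 61.2, 57.3 and 59.1 in the control libraries and 91.7, 93.4 and 90.8 in the NRF2 siRNA libraries. The other two were an intronic region within 20 kb of NFE2L2, the gene of NRF2 itself, and 2403 bases from a start of its neighbour AGPS, with 46.1, 52.7 and 51.5 followed by 67.2, 78.3 and 79.4, and a region 11221 bases from the start of AKR1B1, the aldose reductase gene, with a mean rise of 21.2 ± 16.6 points. At GSR and beside NFE2L2 the groups were apart, and at AKR1B1 the control libraries ran from 18.1 to 71.8 and the NRF2 siRNA libraries from 58.2 to 85.3.

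Of the 20 shared regions in or within 20 kb of 11 genes of the FOS, JUN, ATF and related families, 0 were strengthened, against 5.79% of all shared regions, and their median change was -0.64 points. A strengthened region did lie farther out, 27495 bases from the start of JUN, a subunit of AP-1, and was looked up after its values were seen; its percentile was 15.2, 42.3 and 9.34 in the control libraries and 58.2, 76.9 and 66.1 in the NRF2 siRNA libraries. C/EBP factor genes (5 regions), the NOTCH pathway (31), the interferon response (28), lipid and cholesterol genes (50) and the serine, one-carbon and ATF4 genes (39) likewise had 0 strengthened regions, against the same 5.79%, and nothing is read from counts over so few regions.

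The lists of targets of YAP, the effector of the Hippo pathway, of integrins and laminins and of mesenchymal genes held 2 to 4 strengthened regions each. Of 53 shared regions at YAP target genes, 4 (7.55%) were strengthened, in or beside FJX1 (41.3 ± 3.14 points), CRIM1 (35.8 points), AMOTL1 (35.6 points) and NT5E (26.2 points). At FJX1 the control libraries stood at 2.13, 12.9 and 8.77 and the NRF2 siRNA libraries at 41.7, 57.7 and 48.1. Of 36 regions at integrin and laminin genes, 3 (8.33%) were strengthened. Of these, the region at an exon of LAMC1, a subunit of many laminins, stood at 44.6, 46.5 and 52.1 and then at 89.2, 86.4 and 85.7. A further region near LAMC1 rose by 20.6 points and a region near ITGA2 by 26.7 ± 28.7 points, the latter mostly in pair 1. Of 21 regions at mesenchymal genes 2 (9.52%) were strengthened, at CD44 and near ACTA2, the gene of smooth muscle actin, but without replicate 1 their mean rises were 8.45 and 10.7 points and neither met the rule.

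Glucocorticoid target genes had 3 strengthened of 37 regions (8.11%), in an intron of the kinase gene SGK1 (27.6 ± 9.01 points), near the phosphatase gene DUSP1 (27.5 points) and at a start of ALOXE3 near the clock gene PER1 (25.5 points). The p53 list had 3 of 44, near TNFRSF10B, FAS and BTG2, and the region near FAS was the one near ACTA2. EGFR ligand and feedback genes had 2 of 52, at DUSP1 again and in TGFA, a ligand of the receptor, which was high from the start, with 74.8, 70.8 and 74.996 and then 94.0, 93.7 and 93.3. Single strengthened regions stood in introns of LOXL2, a collagen cross-linking enzyme (40.3 points), and of WNT7B (20.6 points). Others stood near FOXA2, a foregut transcription factor (34.9 points), and NFKB2 (20.8 points, at a start of FBXL15). Pairs of strengthened regions stood in the epithelial list, at CLDN7 and GRHL2, and the hypoxia list, at LDHA and BNIP3L. With 0 to 4 regions a list, no list is set apart from the 5.79% of all shared regions. Of the 26 strengthened regions of the lists, 16 met the rule without replicate 1; those of the p53, mesenchymal and epithelial lists and the region near NFKB2 did not, nor did 2 of 3 in the integrin and laminin list and the region near AKR1B1.

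In a fit over all 16845 shared regions with limma on normal scores of the percentiles, 2 strengthened regions passed a Benjamini-Hochberg adjusted p of 0.05 with NRF2 siRNA higher, which is 0.0119% of the regions tested. They were the regions in AMHR2 (limma, adjusted p = 0.0376) and in CMSS1/FILIP1L (limma, adjusted p = 0.0334), and 18 shared regions were called lower. Leaving out any control library, or NRF2 siRNA replicate 2 or 3, left 0 regions called higher in limma, with 496 to 965 at an unadjusted p under 0.05, and leaving out NRF2 siRNA replicate 1 left 13. With the replicate number as a block, 118 strengthened regions (12.1%) were called, against 0.73% of all shared regions, and with ranks taken among the shared regions alone 314 (32.2%), against 2.02%. Without adjustment, 677 strengthened regions were at p under 0.05 of 928 such regions in all. The rule had used this contrast, so that these counts only show how many of the chosen regions stand out from the spread between libraries.

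Which regions were chosen depended on how far down the peak lists were read. With each list held to its 23885 peaks of highest fold, 437 of the 975 were still called in all 6 libraries, and all 437 met the rule again among 1127 regions that the rule then chose. With peaks at a −log10 q of at least 5, 81 were still called in all 6 libraries and all 81 met the rule again, among 311 chosen. Both choices thus consisted mostly of regions outside the 975. Dropping the weakest peaks of a list stretches the percentiles of the regions that stay, so that their rises are largely kept. The return of all 437 and all 81 is therefore no check of stability. The AP-1 motif was counted in the shared regions of the main lists without a start that overlapped these regions. For equal lists it was found in 73.7% of those overlapping a strengthened region and 59.2% of those overlapping any shared region. For the stricter q the shares were 73.2% and 58.3%. Of the newly merged regions themselves, coding starts made up 14.9% of strengthened and 45.3% of shared regions for equal lists. For the stricter q they made up 18.6% and 43.9%.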

How the data were processed

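H3K27ac ChIP-seq peak lists of 6 A549 libraries were analysed. Per the labels and the study's methods, the authors used Bowtie2 2.2.6 to map the reads to hg19 and MACS2 2.1.0.20151222 to find broad peaks library by library. The deposited lists give each peak's fold enrichment as a ratio and its q-value as −log10. Whether and which input served as background is not given in the sources used here. The lists hold no read counts. The study states read totals, lowest in both replicate 1 libraries, which were not used in any calculation; a longer list can come from a deeper library.

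All 24 chromosomes with peaks were found in GRCh37 with 0 peaks past an end, and 136 of 202238 peaks lay on 10 contigs that were not used for sequence. Genes came from GENCODE 44 lifted to GRCh37, with a region assigned to the class coding start, noncoding start, exon, intron or intergenic, in that order; starts and exons were those of protein-coding transcripts. Intron means an overlap with a protein-coding gene without a start or coding-transcript exon. Intergenic means no overlap with a protein-coding gene and no start, so it includes the bodies of noncoding genes. Motifs were searched in 1000 bases around the centre of the longest stretch called by all 6 libraries. Normal scores were fitted with limma 3.58.1 (lmFit, eBayes; R 4.3.3), p-values were adjusted by the Benjamini-Hochberg method, and the step was tested on simulated data. Exact permutation tests served for shares of calls. Python 3.11.15, scipy 1.17.1 and pysam 0.24.0 served the other steps.

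Same-numbered libraries, numbered in the sample titles, were taken as pairs, and they deviated together from their group means (r = 0.318, 0.270 and 0.343). They also had lists of similar length, and the sources used here do not state whether they shared a culture. Why they deviated together was not tested. The main limma fit did not use the pairs. Regions named in the text were the 10 largest rises, the 5 largest at coding starts, the 5 with the largest smallest pair change, 3 on either side of the threshold, the 3 groups with most strengthened regions, and the largest rise near each gene list; others named were chosen after their values were seen. The strengthened regions, gene lists (457 genes, 454 found) and rules were chosen with earlier results of these data known. Alternatives were other thresholds, summaries of fold, list lengths, q limits, windows, distances and left-out libraries.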

Additional observations from a re-analysis of the deposited data

How the results depend on the processing

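The number of strengthened regions was 2123, 1519, 583 and 346 at a mean rise of at least 10, 15, 25 and 30 points, 1524 with percentiles among shared regions only, 311 at a −log10 q of at least 5 and 179 where every library had to cover at least 50% of the region; it stayed within 1.5 times 975 under the 3 other settings tried and ran from 1068 to 1257 when a pair was left out. Coding starts made up 14.7% and 4.91% of strengthened regions at 10 and 30 points, 13.3% with percentiles among shared regions, 14.9% with equal lists, 18.6% at the stricter q and 7.82% with the coverage demand, and 6.93 to 17.9% without a pair. AP-1 was found in 73.4% of strengthened regions without a start both at 10 points and with the coverage demand, and in 74.4 to 76.3% without a pair. In 500 bases around the centre, AP-1 was found in 55.5% of strengthened and 41.9% of shared regions and the ARE in 17.7% and 23.3%.

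Weakened regions numbered 1375 with percentiles among shared regions, 1105 with equal lists and 785 to 1809 without a pair.

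In limma, 2 shared regions were called higher and 18 lower. With the replicate block there were 123 higher and 173 lower, with trend and robust options 19 and 83, on percentiles in place of normal scores 5 and 13, with equal lists 117 and 201, with regions called in at least 3 libraries 657 and 1108, with replicates 2 and 3 only 404 and 303, and with ranks among shared regions, added after the data were seen, 341 and 369. Leaving out a library gave 0 to 13 higher and 0 to 37 lower: none without any control library or NRF2 siRNA replicate 2, 0 and 2 without NRF2 siRNA replicate 3, and 13 and 37 without NRF2 siRNA replicate 1. The cause was not tested. The difference in calls beside strengthened regions was 1.76 points at 20 kb and 2.92 points at 100 kb, and 1.42 to 3.16 points without a library, always higher in NRF2 siRNA. Of the 46 named regions, the mean rise moved by more than its spread over pairs in 19 with percentiles among shared regions. It did so in 0 with the length-weighted mean of fold. Leaving out a pair cannot move a mean of 3 pairs by more than their SD, so this measure says nothing about the settings without a pair. Depth, lowest in replicate 1 by the study's own totals, limits how far a rank can be trusted, and no value was adjusted for it.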
